A study of Homo sapiens with 10 samples.

Results

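The genes described here are 36 members of the BCL2 family, the inhibitor of apoptosis proteins (IAPs) and the caspases with their death receptors and adaptors, followed through a pooled CRISPR knockout screen in prostate cancer cells. They were taken by symbol from a fixed list, and all 36 were among the 18686 gene symbols of the count table. Of these genes, 13 protect cells from apoptosis (pro-survival) and 23 carry it out or trigger it (pro-death). Each gene had 3 sgRNAs, 108 of the 55849 listed. An sgRNA was kept when its mean count over the 10 libraries was at least 20, which held for 98 of the 108. Of the 36 genes, 26 had 3 kept sgRNAs and 10 had 2, so every gene could be tested, with 18197 genes tested in all.

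Apoptosis is the programmed death of a cell. In the mitochondrial pathway, pro-survival proteins such as BCL2, BCL-XL (the product of BCL2L1) and MCL1 hold back the pore formers BAX and BAK1, and BH3-only proteins such as BIM (BCL2L11), NOXA (PMAIP1) and PUMA (BBC3) relieve that hold. Cytochrome c (CYCS) then leaves the mitochondria and assembles APAF1 and caspase-9, while IAPs such as XIAP restrain caspases and are countered by SMAC (DIABLO). In the receptor pathway, FAS and the TRAIL receptors recruit FADD, caspase-8 and caspase-10, with CFLAR as the brake. High MYC activity is known to sensitise cells to apoptosis, and cancer cells often depend on MCL1 or BCL-XL. In a knockout screen, an sgRNA against a gene that cells need is lost from the population, and one against a gene that limits growth or survival is gained.

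The cells were 22Rv1, an established human prostate carcinoma line, either parental or overexpressing NMYC, the protein of MYCN. The labels do not say which vector or promoter drives NMYC, or whether the line is 1 clone. Both arms received a lentiviral library that the labels put at 65000 sgRNAs (lentiCRISPRv2_B), at a multiplicity of infection of 0.3, followed by puromycin selection, and then grew as duplicate cultures with repeated passage. Each arm was sampled once at T0 (1 library) and in both cultures at T6 and T12 (2 libraries each), with libraries made by amplicon sequencing of the sgRNA cassette in genomic DNA. The duplicates of an arm come from 1 infected population, so p-values measure the spread that arose after infection.

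Totals ran from 8783512 to 18398571 counts per library. The members' sgRNAs had a median count of 42 to 192 per library, against 50 to 187 for all sgRNAs listed. At parental T0 the median was 71 counts, with 28 for sgRNAs of pro-survival genes and 88 for those of pro-death genes. In that library 47 of the 108 sgRNAs (43.5%) had under 30 counts, against 36.4% of all sgRNAs, and at NMYC T0 30 of 108 (27.8%) did, against 26.2%. Replicate cultures differed widely for these genes. Between the T12 cultures, 42 of the 98 kept sgRNAs in parental cells (42.9%) and 44 in NMYC cells (44.9%) differed by over 4-fold in CPM (counts relative to the TMM-adjusted library size). The shares over all kept sgRNAs were 45.3% and 41.6%. The T0 libraries of the arms differed by over 4-fold for 40 of the 98 sgRNAs, against 47% of all kept sgRNAs, so that a contrast with T0 starts from unequal levels in the arms.

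Knockout of none of the 36 genes gave a change that passed the test in either arm or between them. The gene test ranked each gene's sgRNAs by their edgeR quasi-likelihood p-values (robust rank aggregation, adjusted by the Benjamini-Hochberg method over all genes, threshold 0.05). In parental cells from T0 to T12 it called 0 of 36 members lower and 0 higher, with 0% of all genes called in each direction. Before adjustment, at p under 0.05, 0 members were lower and 1 was higher, where 5.11% and 4.85% of all genes were. In NMYC cells it called 0 and 0 (0% and 0% of all genes), with 2 lower and 4 higher unadjusted, against 5.02% and 5.07% of all genes. In the difference NMYC minus parental it called 0 and 0 (0% and 0%), with 2 and 1 unadjusted, against 4.78% and 4.85%. With DESeq2 p-values in the same ranking the members called were also 0, against 0% of all genes. With edgeR on counts summed per gene they were also 0, against at most 0.011% of all genes in either direction of these contrasts. Of the members' 98 sgRNAs, edgeR called 0 in each of them after adjustment over all 53040 sgRNAs (0.0226% of all sgRNAs lower in parental and 0.0132% in NMYC cells, 0% higher in both, 0% either way in the difference). Before adjustment, at p under 0.05, edgeR had 4 sgRNAs lower and 5 higher in parental cells, where 5.92% and 5.31% of all sgRNAs were. In NMYC cells it had 7 and 4, against 5.31% and 1.48%, and in the difference 5 and 2, against 6.17% and 3.78%. The DESeq2 Wald test, run as another tool, called 8 of the sgRNAs in parental cells, 3 in NMYC cells and 3 in the difference after adjustment. These were 2 lower and 6 higher in parental cells (3.99% and 7.91% of all sgRNAs), 2 and 1 in NMYC cells (1.76% and 1.37%), and 1 and 2 in the difference (4.02% and 2.77%).

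A gene's log2 value below is the log2 fold change of the summed CPM plus 0.5, relative to the median of all genes tested. It uses the mean CPM of each group. A replicate's value uses that T12 library alone, relative to its own median of all genes. A gene's value can therefore lie outside the values of its replicates. The pro-survival genes had a median log2 value of -0.60 in parental cells, with 5 of 13 under -1 and 5 over 1, where 25.6% and 28.7% of all genes lay beyond those lines. In NMYC cells their median was 0.09, with 2 under -1 and 4 over 1, against 24.2% and 24.5% of all genes. The pro-death genes had a median of 0.31 in parental cells, with 4 of 23 under -1 and 6 over 1. In NMYC cells it was -0.53, with 8 under -1 and 4 over 1. In the difference NMYC minus parental the pro-survival median was 0.73 and the pro-death median -0.22, with 11 of the 36 members under -1 and 9 over 1, against 32.6% and 32.3% of all genes. With 1 T6 or T12 library left out in turn, 3 of these 6 medians kept their sign and 3 did not. The T0 libraries, 1 per arm, were not left out, so dependence on them was not tested this way. The parental pro-survival median was 0.05 without parental T12 replicate 1, the parental pro-death median was -0.23 without replicate 2, and the pro-death difference was 0.25 without parental T12 replicate 2.

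Among the pro-survival BCL2 proteins, MCL1 sequesters BAK1 and BIM, and its sgRNAs differed in direction. The sgRNA HGLibB_28556 began with 1004 counts in parental cells and had 13 and 18 in the T6 cultures and 6 and 340 in the T12 cultures. In NMYC cells that sgRNA had 226 counts at T0, then 82 and 0 in the T6 cultures and 3 and 2 in the T12 cultures. So it was scarcer than at T0 in all 8 later libraries, with edgeR adjusted p = 0.589 in parental and 0.54 in NMYC cells at T12. A second MCL1 sgRNA, HGLibB_28558, stayed abundant, with 1333 counts at parental T0 and 630, 177, 391 and 1512 later, and with 750 at NMYC T0 and 1088, 839, 1162 and 1198 later. The third, HGLibB_28557, had 0 counts at parental T0 and 40 at NMYC T0, too few to show a loss. For the gene as a whole the log2 value was -1.19 in parental cells (-2.49 and -0.33 in the T12 replicates) and 0.09 in NMYC cells (0.35 and 0.14), with rank aggregation adjusted p = 0.987 and 0.983 on the lower side.

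BCL2L1 encodes BCL-XL, and its summed parental level was 304 CPM at the start, 63.2 and 40.9 in the T6 cultures, and 20.7 and 94.8 in those of T12. All 4 later parental libraries lay below T0. Its log2 value there was -2.29 (-3.60 and -1.43 in the replicates; rank aggregation adjusted p = 0.987). HGLibB_04301 went from 2063 counts to 105, 6, 0 and 853, and HGLibB_04300 from 1951 to 760, 158, 166 and 116, while HGLibB_04299 went from 55 to 241, 121, 154 and 558. In NMYC cells the gene had 42.0 CPM at T0, then 29.4 and 35.8 in the T6 cultures and 31.3 and 77.3 in the T12 cultures, so that the T12 libraries of the arms overlapped and the T0 libraries were far apart. The NMYC log2 value was 0.34. There HGLibB_04301 again had fewer counts in each later library, from 263 to 18, 3, 14 and 46, and HGLibB_04300 went from 64 to 329, 382, 434 and 505.

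BCL2 itself had low counts at T0. Its sgRNAs had 246, 23 and 23 counts at parental T0 and 11, 254 and 5 at NMYC T0, and its log2 value was 1.77 in parental and 1.45 in NMYC cells. Summed CPM at T12 was 31.9 and 110 in parental and 67.6 and 51.1 in NMYC cells, over 21.8 and 21.0 at T0. The sgRNA HGLibB_04293 had 5 counts in one parental T12 culture and 1506 in the other, and 850 and 180 in the NMYC T12 cultures. In NMYC cells its rank aggregation adjusted p on the higher side was 0.959.

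BCL2L2 encodes BCL-W, and its summed levels in the replicate NMYC cultures lay close together. It had 10.9 CPM at NMYC T0, then 24.6 and 22.2 in the T6 cultures and 90.6 and 98.1 in the T12 cultures. All 3 of its sgRNAs had fold changes above 0, led by HGLibB_04320 with 10 counts at T0, then 419 and 278 in the T6 cultures and 817 and 1158 in the T12 cultures. HGLibB_04321 went from 27 to 23 and 0 and then to 241 and 185. HGLibB_04322 went from 103 to 37 and 1 and then to 327 and 17, so its T12 cultures lay on either side of T0. The log2 value was 3.03, at the 98.2th percentile of all genes (3.26 and 3.12 in the replicates), and the rank aggregation adjusted p was 0.959. In parental cells BCL2L2 had 26.0 CPM at T0, then 44.5 and 55.0 in the T6 cultures and 5.49 and 26.3 in the T12 cultures, with a log2 value of -0.60.

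BCL2A1 and BCL2L10, both pro-survival homologues of BCL2, gave no consistent picture. BCL2A1 had log2 values of -2.28 in parental and -1.31 in NMYC cells, both carried by HGLibB_04298. That sgRNA went from 2942 counts at parental T0 to 118, 111, 492 and 384, and from 1184 at NMYC T0 to 383, 430, 136 and 148. It was the only BCL2A1 sgRNA with over 100 counts in either T0 library, and another of the gene, HGLibB_04297, went from 24 counts at parental T0 to 1420 in 1 of the T6 cultures. BCL2L10 had log2 values of 3.22 and -0.07, and its 2 kept sgRNAs had 16 and 39 counts at parental T0.

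BIRC6 encodes a very large IAP that also acts as a ubiquitin ligase for caspases and SMAC. Of the 36 members it had the smallest gene p, in NMYC cells from T0 to T12 (unadjusted 0.000285, rank aggregation adjusted p = 0.55). Its summed level was 263.5 CPM at NMYC T0, then 34.4 and 41.4 in the T6 cultures and 32.9 and 22.9 in the T12 cultures, so that all 4 later libraries lay far below T0. All 3 sgRNAs were lower at both T12 cultures. HGLibB_04523 went from 3179 counts at T0 to 351 and 307 at T6 and 501 and 311 at T12. HGLibB_04522 went from 100 to 298 and 210 and then to 2 and 5, and HGLibB_04521 from 116 to 20 and 2 and then to 0 and 1. Their edgeR adjusted p-values were 0.661, 0.711 and 0.679. The log2 value of the gene was -3.25 (-2.73 and -3.50 in the replicates). That value stayed between -5.16 and -2.29 over 15 alternative settings, none of which left out the T0 library.

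In parental cells BIRC6 had 67.9 CPM at T0, then 29.4 and 48.9 in the T6 cultures and 31.3 and 19.4 in the T12 cultures, with a log2 value of -1.31 (adjusted p = 0.987). There HGLibB_04522 was again below T0 in every later library, from 771 counts to 123, 136, 21 and 55, while HGLibB_04523 went from 138 to 391, 27, 463 and 252 and HGLibB_04521 had 0 counts at T0. The T12 levels of the arms overlapped, 31.3 and 19.4 CPM in parental against 32.9 and 22.9 in NMYC cells. The difference NMYC minus parental, a log2 value of -1.83 (rank aggregation adjusted p = 0.992), went with a T0 difference of the opposite sign and larger size, a log2 value of 2.08. Without T0, the direct comparison at T12 gave 0.21.

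BIRC3 and BIRC2 encode cIAP2 and cIAP1, ubiquitin ligases of the TNF receptor pathway, and are direct neighbours in the genome (RefSeq annotation of GRCh38.p14). BIRC3 had the smallest p of any member in parental cells at T12 (unadjusted 0.0116, rank aggregation adjusted p = 0.983), on the higher side. It went from 18.0 CPM at T0 to 69.8 and 36.3 at T6 and 137 and 144 at T12, a log2 value of 3.03 with 3.14 and 3.22 in the replicates. Its most abundant sgRNA, HGLibB_04517, had 221 counts at T0 and 1903 and 1075 at T12, and the other two had 2 and 18 counts at T0. In NMYC cells BIRC3 went from 25.9 CPM to 122 and 62.9 at T12, a log2 value of 1.78. BIRC2, by contrast, had log2 values of -0.25 and 0.36, and its NMYC T12 cultures held 5.23 and 82.1 CPM.

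XIAP, a direct inhibitor of caspases, had 185 CPM at parental T0 and 82.3, 27.8, 51.5 and 57.9 in the later parental libraries, all below T0. Its 3 sgRNAs all had parental fold changes below 0, although 2 of them began at 24 and 9 counts. The log2 value was -1.65 (-1.58 and -1.42 in the replicates; rank aggregation adjusted p = 0.987). In NMYC cells XIAP had 88.6 CPM at T0 and 155 and 33.8 at T12, which straddle T0, with a log2 value of 0.06.

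BIRC5 encodes survivin, which is needed for chromosome segregation as well as being an IAP. Its sgRNAs were not scarce as a group at T12. Summed CPM was 25.8 at parental T0 and 72.8 and 37.0 at T12, and 25.9 at NMYC T0 and 10.5 and 34.3 at T12. The log2 values were 1.17 and -0.23 (rank aggregation adjusted p = 1 and 0.9997 on the lower side). Only HGLibB_04519 had over 43 counts at T0, with 298 in parental and 264 in NMYC cells, and at T12 it had 1096 and 514 in parental and 23 and 355 in NMYC cells. BIRC7, a melanoma-associated IAP also called livin, had log2 values of -0.96 and -0.01.

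CFLAR encodes c-FLIP, the brake on caspase-8, and its summed level was higher than at T0 in every later library. All 4 later parental libraries (53.6, 101, 55.3 and 48.2 CPM) lay above T0 at 17.3 CPM. The 4 later NMYC libraries (82.6, 67.8, 76.5 and 89.6 CPM) likewise lay above T0 at 28.7 CPM. The log2 values were 1.65 and 1.49 and the rank aggregation adjusted p-values on the higher side 0.983 and 0.996. No CFLAR sgRNA was lost: the lowest count among the 12 T12 values was 40, in parental cells.

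Of the pore formers, neither BAX nor BAK1 showed a gain in summed CPM in both T12 cultures of an arm, though single sgRNAs did. BAX had 2 kept sgRNAs and went from 59.4 CPM at parental T0 to 34.6 and 21.0 at T12, and from 46.5 at NMYC T0 to 33.9 and 76.4 (log2 values -0.98 and 0.22). Its sgRNA HGLibB_04180 had 598 counts at parental T0 and 498 and 333 at T12, but 57 at NMYC T0 and 513 and 872 at T12. A second, HGLibB_04181, went from 197 to 38 and 5 in parental cells, so both kept sgRNAs were lower there, and from 542 to 5 and 188 in NMYC cells. BAK1 had log2 values of 0.57 and -1.17. The NMYC value rested on HGLibB_04133, with 1443 counts at T0 and 25 and 402 at T12, and the T12 cultures held 9.48 and 104 CPM. In parental cells that sgRNA went from 3 counts at T0 to 70 and 57 at T12. HGLibB_04131 rose in both arms, from 7 to 25 and 427 in parental and from 16 to 120 and 1016 in NMYC cells. HGLibB_04132 fell in both, from 184 to 30 and 42 and from 160 to 0 and 23. BOK, a BAX-like protein, had log2 values of 0.19 and -0.85, and its parental T12 cultures held 1.55 and 70.4 CPM.

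Among the BH3-only genes PMAIP1 had the lowest log2 value of all members. PMAIP1 encodes NOXA, which binds MCL1 and marks it for destruction. In NMYC cells it went from 164 CPM at T0 to 19.1 and 22.2 at T6 and 11.6 and 2.31 at T12, all below T0. Each of its 3 sgRNAs was below T0 in all 4 later libraries. HGLibB_37241 went from 1874 counts to 294, 258, 135 and 25, HGLibB_37242 from 178 to 65, 5, 41 and 7, and HGLibB_37243 from 63 to 13, 15, 2 and 0. The log2 value was -4.49 (-3.51 and -5.87 in the replicates), at the 0.324th percentile of all genes, with a rank aggregation adjusted p of 0.939. In parental cells the level was 40.1 CPM at T0, then 42.6 and 33.6 in the T6 cultures and 97.2 and 18.8 in the T12 cultures, a log2 value of 0.62. HGLibB_37241 had most of these counts, with 535 in the T0 library, then 439, 225, 1074 and 302. HGLibB_37242 had 2 counts at parental T0, then 113, 2, 2 and 1, and HGLibB_37243 had 0, then 194, 7, 428 and 0. The replicate cultures of HGLibB_37243 thus disagreed at both time points.

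BCL2L11 and BIK lay on the higher side in both arms. BCL2L11 encodes BIM, an activator of BAX and BAK1, and went from 84.4 CPM at parental T0 to 218 and 153 at T12 and from 24.8 at NMYC T0 to 76.7 and 105. The T12 cultures of each arm lay above its T0 library, while the parental T6 cultures, with 62.7 and 144.5 CPM, lay on either side of T0. Of its sgRNAs, HGLibB_04306 went from 53 counts at parental T0 to 1403 and 1064 at T12 and from 171 at NMYC T0 to 128 and 1272. HGLibB_04305 went from 452 to 1373 and 673 and from 35 to 355 and 79, and HGLibB_04307 from 625 to 593 and 732 and from 114 to 690 and 105. The gene's log2 values were 1.23 and 1.82, the latter with a rank aggregation adjusted p of 0.959. BIK had the highest log2 value of any member in NMYC cells, 3.46 (3.80 and 3.42 in the replicates; adjusted p = 0.959), going from 7.30 CPM at T0 to 90.6 and 83.0 at T12. In parental cells BIK went from 2.76 CPM at T0 to 39.9 and 140.9 at T6 and 10.1 and 41.6 at T12, a log2 value of 3.11. Its mean parental level was thus lower at T12 than at T6. These BIK values start from few counts, since its 2 kept sgRNAs had 20 and 17 at parental T0 and 91 and 3 at NMYC T0. One of them, HGLibB_04502, accounted for most of the NMYC level, with 1366 and 1146 counts at T12.

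The remaining BH3-only genes had no common direction. BBC3, which encodes PUMA, had log2 values of 1.53 in parental and 0.95 in NMYC cells. BID, which links caspase-8 to mitochondria, had -0.25 and -0.90, BAD -1.04 and -0.53, BMF -1.02 and -1.85, and HRK 0.69 and -0.82. For HRK 1 sgRNA, HGLibB_22076, had at most 23 counts in any library, and the gene's T6 cultures in NMYC cells held 58.6 and 1.91 CPM.

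In the apoptosome, APAF1 had the highest parental log2 value of all members, 4.51 (5.07 and 4.08 in the replicates). It went from 2.99 CPM at T0 to 21.0 and 54.5 at T6 and 98.2 and 49.1 at T12, all above T0. A single sgRNA carried this, HGLibB_02362, with 26 counts at T0 and 1515 and 738 at T12 (edgeR adjusted p = 0.408). The rank aggregation adjusted p of the gene was 0.983. In NMYC cells APAF1 had 25.7 CPM at T0 and 45.7 and 33.8 at T12, a log2 value of 0.59. CYCS, whose product also carries electrons in respiration, had log2 values of -1.05 and -1.38. HGLibB_12015 supplied nearly all of its counts, with 658 at parental T0 and 107 and 520 at T12, and with 1267 at NMYC T0 and 351 and 744 at T12. CASP9, the initiator caspase that APAF1 activates, had 0.31 and 1.13, and its T12 cultures held 10.6 and 128 CPM in parental and 32.3 and 204 in NMYC cells. Its sgRNA HGLibB_07326 had 92 counts at parental T0 and 59 and 1307 at T12, and 342 at NMYC T0 and 444 and 2415 at T12. HGLibB_07324 went from 631 to 2 and 734 in parental cells and from 23 to 21 and 2 in NMYC cells, and HGLibB_07325 from 77 to 103 and 16 and from 312 to 29 and 407. In each arm 1 culture held most of the CASP9 counts.

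DIABLO encodes SMAC, and 1 of its sgRNAs was abundant in all 10 libraries. That sgRNA, HGLibB_13196, had 1365 counts at parental T0 and 1063, 654, 1464 and 1220 later, and 1223 at NMYC T0 and 1024, 379, 1661 and 1328 later. The summed level went from 269 CPM at parental T0 to 133 and 131 at T12, a log2 value of -0.93 with closely agreeing T12 replicates (-0.76 and -0.79). The parental T6 cultures disagreed, with 110.8 and 334.5 CPM, on either side of T0. The NMYC level was 125 at T0 and 117 and 173 at T12 (log2 value 0.19). CASP2, a caspase activated in the DNA damage response, had log2 values of 1.55 and -1.21. HGLibB_07300 went from 482 counts at parental T0 to 1019 and 1756 at T12 and from 1247 at NMYC T0 to 565 and 104. HGLibB_07301 went from 98 to 191 and 798 and from 120 to 603 and 37, and HGLibB_07302 from 0 to 43 and 1 and from 4 to 103 and 1. All 3 CASP2 sgRNAs had parental fold changes above 0, while in NMYC cells 1 of the 3 was lower. CASP6, an executioner caspase, had 0.42 and -1.38. Its sgRNA HGLibB_07313 went from 924 counts at NMYC T0 to 1 and 29 at T12 (edgeR adjusted p = 0.36). There HGLibB_07314 went from 365 to 278 and 43. The third, HGLibB_07312, had a fold change above 0 in NMYC cells, from 12 to 3 and 761.

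In the receptor pathway the genes had no common direction. FAS, a receptor of the TNF receptor family, had log2 values of -0.0042 and 1.81, and the TRAIL receptor genes had -0.19 and -0.39 (TNFRSF10A) and -2.26 and -1.66 (TNFRSF10B). The TNFRSF10B values differed between cultures, with 1.81 and 52.9 CPM at parental T12 and 40.3 and 9.88 at NMYC T12, over 143 and 79.0 at T0. Its sgRNA HGLibB_50675 went from 1888 counts at parental T0 to 27 and 679 at T12 and from 552 at NMYC T0 to 486 and 96. HGLibB_50674 went from 24 to 1 and 173 and from 466 to 130 and 41, and the third, HGLibB_50673, had at most 40 counts in any library. FADD, the adaptor of these receptors, had 1.42 and -1.08. HGLibB_15910 against FADD went from 242 counts at parental T0 to 0, 0, 0 and 3, but the other 2 FADD sgRNAs went from 88 and 88 counts to 926 and 723 in one T12 culture and 316 and 507 in the other. CASP8, CASP10 and CFLAR lie next to each other in the genome. CASP8 had log2 values of -0.25 and -0.34 and was carried by HGLibB_07320, which had 1403 counts at parental T0 and 305 and 1587 at T12, and 2003 at NMYC T0 and 1067 and 2669 at T12. Its other kept sgRNA, HGLibB_07319, went from 4 to 126 and 622 in parental cells and from 130 to 65 and 2 in NMYC cells. The 2 kept sgRNAs thus differed in direction in parental cells. CASP10 had log2 values of 0.46 and 0.88.

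The question of the study's design, which knockouts are harmful under NMYC overexpression and tolerated without it, is addressed by the difference NMYC minus parental from T0 to T12. PMAIP1 was lowest at -5.01 (rank aggregation unadjusted p = 0.0192, adjusted p = 0.989), followed by APAF1 at -3.81 and BCL2L10 at -3.19. BCL2L2 was highest at 3.74 (unadjusted 0.0346, adjusted p = 0.993), followed by BCL2L1 at 2.74 and FAS at 1.92. MCL1 had 1.39 and XIAP 1.82. The sgRNAs of BCL2L1 and MCL1 disagreed in direction in this difference. Those of BCL2L1 had log2 fold changes of -2.19, 6.72 and -0.73, and those of MCL1 -3.81, -6.11 and 1.22. Most sgRNAs of these genes thus lay below 0, against the sign of the gene value. This difference includes the T0 level of each arm, and 29 of the 36 members had a difference opposite in sign to the T0 difference between the arms, where 83% of all genes did. Summed T0 levels differed by over 4-fold, relative to the median gene, for 6 members (APAF1, BAK1, BCL2L1, BIRC6, FADD and PMAIP1), against 29.3% of all genes.

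Compared directly at T12, without T0, the arms were separate for 10 members. In 7 genes both NMYC cultures lay below both parental ones: APAF1, BCL2L11, BIRC3, BIRC5, BMF, HRK and PMAIP1, where 19% of all genes did. In 3 genes both lay above: BCL2L2, BIK and CFLAR, where 14.8% of all genes did. PMAIP1 had 11.6 and 2.31 CPM in NMYC against 97.2 and 18.8 in parental cells, a log2 value of -2.90, and BCL2L2 had 90.6 and 98.1 against 5.49 and 26.3, a value of 2.60. The rank aggregation called 0 members in this comparison (0% of all genes in each direction), and before adjustment 2 were lower (HRK and PMAIP1) and 1 was higher (BCL2L2), against 5.11% and 4.89% of all genes. With DESeq2 p-values and with edgeR on summed counts the members called were also 0, against 0% of all genes with each.

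Agreement among the sgRNAs of a gene was counted beside the same share over all genes. In parental cells all kept sgRNAs of a gene were lower at T12 than at T0 for 5 of 36 members and higher for 7, against 9.73% and 20.7% of all genes. In NMYC cells this held for 5 and 8 members, against 11.5% and 17.9%. Summed levels of all 4 later libraries lay below T0 for 9 members in parental cells and above it for 9, against 32.1% and 20.8% of all genes, and for 12 and 8 members in NMYC cells, against 31.6% and 19.4%.

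The sgRNAs that began with at least 100 counts leave room to show a low level later. They were picked by a high count in the same T0 library that their later levels are divided by. That selection itself favours a fall, so the shares are read only beside those over all such sgRNAs. In parental cells 48 member sgRNAs did, and 9 of them were at 25% of their T0 CPM or less in both T12 cultures, while 16 were so in exactly 1 culture. Over all such sgRNAs the shares were 24.3% and 36.6%. The 9 targeted BAK1, BAX, BCL2A1, BCL2L1, BCL2L2, BID, BIRC6, DIABLO and FADD, 4 pro-survival and 5 pro-death genes. In parental cells the pro-survival share was thus 4 of 17 and the pro-death share 5 of 31. Among NMYC libraries it was 16 of 56 in both cultures and 19 in exactly 1, against 19.5% and 33.2%. Of these 16, 8 targeted pro-survival genes, namely all 3 BIRC6 sgRNAs and 1 each against BCL2A1, BCL2L1, BCL2L10, MCL1 and XIAP. In NMYC cells the pro-survival share was 8 of 19 and the pro-death share 8 of 37. Among the lowest in NMYC cells were BIRC6 sgRNA HGLibB_04521 at 0% and 0.801% of T0 and MCL1 sgRNA HGLibB_28556 at 1.12% and 0.822%. Levels as low occurred among pro-death genes, with CASP6 sgRNA HGLibB_07313 at 0.0912% and 2.92%. The limits of 100 counts and 25% were chosen after the values were seen, and these shares carry no test.

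Some sgRNAs had hardly any counts at T12 in both arms. At T12, 5 of the 108 had at most 5 counts in each of the 4 libraries, against 2.73% of all sgRNAs listed. All of them target pro-death genes, which have 69 of the 108 sgRNAs: BAX, BIK, CYCS, FADD and HRK. The limit of 5 was likewise set after the values were seen. Of these sgRNAs, HGLibB_15910 against FADD (242 counts) and HGLibB_04179 against BAX (76 counts) had over 12 counts in the parental T0 library. At NMYC T0 none of the 5 had over 10 counts, too few to show a loss in that arm.

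At the intermediate time point no member passed the test either. In parental cells from T0 to T6 the rank aggregation called 0 members in each direction (0% of all genes), and before adjustment 2 were lower at p under 0.05 (BCL2A1 and BCL2L1) and 1 was higher (BIK), against 5.01% and 4.88% of all genes. In NMYC cells it also called 0 (0%), with 3 lower (BCL2L1, CASP8 and PMAIP1) and 4 higher (BCL2, BCL2L2, BIK and BIRC2), against 5.12% and 4.96%. PMAIP1 had a T6 log2 value of -2.73 there and BIRC6 -2.55. From T6 to T12, which needs no T0 library, 0 members were called in parental cells (0% of all genes), with BIRC7 lower and CASP9 higher unadjusted, against 4.9% and 4.89%. In NMYC cells 0 were called (0%), with BIRC6 and CASP6 lower and BAX, BCL2L11, BCL2L2 and DIABLO higher, against 4.96% and 4.7%. BCL2L2 had the smallest of these p-values (0.00786 unadjusted, rank aggregation adjusted p = 0.992) with a log2 value of 1.65 from T6 to T12, on top of 1.31 from T0 to T6. In all 4 of these contrasts the member genes called were 0 with DESeq2 p-values and with edgeR on summed counts. Each of these also called 0% of all genes.

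Other genes of the apoptosis machinery were not called either. Of a list of 35 (among them NAIP, HTRA2, MDM2, RIPK1, MLKL and TRADD) 34 were tested, and the rank aggregation called 0 in each of the 3 contrasts of T12 against T0. In each of these contrasts 0% of all genes were called in either direction. Before adjustment, at p under 0.05, 0 were lower and 0 higher in parental cells, against 5.11% and 4.85% of all genes. The counts were 1 and 1 in NMYC cells, against 5.02% and 5.07%, and 0 and 1 in the difference, against 4.78% and 4.85%. BCL2L13, a BCL2-like protein of mitophagy, ranked first by p on the lower side in NMYC cells with a log2 value of -2.92 (rank aggregation adjusted p = 0.818), followed by MLKL with -1.12. On the higher side BIRC8 had a log2 value of 2.25. In parental cells TNFRSF10C (-1.34) and RIPK1 (0.65) ranked first by p on the lower side and HTRA2 (2.99) and CASP5 (3.43) on the higher side. In the difference CASP4 (-1.88) and TRADD (-1.41) ranked first on the lower side and TNFRSF10C (1.72) and DFFB (1.48) on the higher side. The median log2 value of the 34 genes was 0.56 in parental cells, 0.21 in NMYC cells and -0.36 in the difference.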

How the data were processed

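The members and gene lists were chosen with earlier results of these data known. The authors deposited unnormalized read counts for each sgRNA, per the file headers, and each of the 10 columns matched 1 library. MAGeCK is the tool in the submitters' processing notes, which give no version. For trimming, the mismatch setting, sgRNA sequences and the genome build, nothing is given in the sources used here. Totals were 8783512 to 18398571 counts per library, which limits counting error only, since PCR reads without molecular identifiers are not independent molecules.

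In R 4.3.3, sgRNAs with a mean of at least 20 counts (53040) were fitted with edgeR 4.0.16 (TMM, quasi-likelihood, 1 mean for each of 6 groups, 4 residual degrees of freedom, common dispersion 1.11). An arm's single T0 library borrows its spread from the groups with replicates. Robust rank aggregation gave the gene p-values (alpha from a one-sided p of 0.25, exact null per number of sgRNAs, at least 2 kept), adjusted over all genes in each of 8 contrasts, and the code was tested on simulated data. All members are named, with sgRNA counts for 13 central genes and for the 2 smallest p per list and direction. The rule asked for every sgRNA of these genes in every library; for some, the text prints only part of the counts. Pseudocount was 0.5 CPM. Alternatives changed filters, normalization, test (DESeq2 1.42.0), baseline, block and libraries. The labels tie replicate numbers to cultures carried from T6 to T12, but the difference between cultures at T6 and at T12 correlated over sgRNAs at only 0.0687 in parental and -0.00874 in NMYC cells. Some genes of the wider apoptosis list are not reported here by name.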

Additional observations from a re-analysis of the deposited data

How the results depend on the processing

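The count of member genes called was 0 in each of the 8 contrasts under every alternative run. The main test called 0% of all genes in each of them. The alternatives included the replicate block (0 genes and 0 sgRNAs called in each contrast) and the fit of 1 arm alone. They also included each left-out T6 or T12 library (lowest 0, highest 0). The count of member sgRNAs called was also 0 except with the DESeq2 Wald test. DESeq2 called 8 in parental cells from T0 to T12, 3 in NMYC cells and 3 in the difference. It called 6 between the arms at T12 (4 lower and 2 higher, against 4.3% and 4.08% of all sgRNAs) and 9 in parental cells from T0 to T6 (1 and 8, against 1.96% and 5.95%). From T6 to T12 it called 3 in parental cells (3 and 0, against 1.94% and 0.627%) and 1 in NMYC cells (1 and 0, against 0.673% and 0.28%). Its parental 8 were 2 lower (BCL2L1, BIRC6) and 6 higher (APAF1, BCL2L11, BIRC2, BIRC3, CFLAR, PMAIP1), where DESeq2 called 3.99% and 7.91% of all sgRNAs. The PMAIP1 sgRNA, HGLibB_37243, had the smallest DESeq2 adjusted p of these (2.46e-07). It had 0 counts at parental T0 and 428 and 0 at T12. In NMYC cells the calls were CASP6 and PMAIP1 lower and BCL2L2 higher. In the difference they were PMAIP1 (HGLibB_37243) lower and BCL2L1 and BCL2L2 higher. List medians moved more. The pro-death median in NMYC cells was 0.35 when sgRNAs under 30 counts in either T0 library were left out (13 genes tested), and -0.18 when the T0 libraries of the arms were pooled as the baseline. With the median of the sgRNA log2 fold changes in place of the sums, the parental medians were 0.55 (pro-survival) and -0.28 (pro-death), the NMYC pro-death median -0.85, and the differences -0.38 and -0.82; the cause was not tested. The T0 libraries, 1 per arm, were never left out. Without 1 T6 or T12 library the pro-survival median ran from -0.86 to 0.0491 in parental cells and from 0.0867 to 0.94 in NMYC cells. In the difference it ran from 0.11 to 0.73. The pro-death median ran from -0.23 to 0.51, from -0.53 to -0.23 and from -0.56 to 0.25. Of the 36 members, 19 kept the sign of their log2 value under every alternative that gave them a value in parental cells, 22 in NMYC cells and 12 in the difference, PMAIP1 (-6.36 to -2.90) and BCL2L2 (2.60 to 7.36) among the last, and BIRC6 (-3.82 to 0.21) not. A gene had 13 to 15 such alternatives, some of which left out a library that does not enter the contrast. The same count was not made over all genes. Low counts limit the members: between 23 and 50 of their 108 sgRNAs had under 30 counts, depending on the library, with 47 at parental T0. That was 21.3% to 46.3% of them, against 15.2% to 40.2% of all sgRNAs. Parental T0 had the largest total of the 10 libraries.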
